A study of Mus musculus with 4 samples.

Results

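Hepatocyte nuclear factor 4 (HNF4), FOXA, ONECUT and SOX9 proteins are DNA-binding factors shared by the endodermal organs, and the 8 mouse genes *Hnf4a*, *Hnf4g*, *Foxa1*, *Foxa2*, *Foxa3*, *Onecut1*, *Onecut2* and *Sox9* were examined for binding of NFIC in the adult pancreas. Their peaks were the entries of the deposited NFIC peak list whose named gene, the gene with the nearest transcription start site (TSS), is one of these 8. The rule gave 8 of the 15824 peaks in the list, spread over 6 of the 8 genes. NFIC-bound chromatin was taken from pancreata of wild-type mice of mixed strain, 8 to 12 weeks old by the deposited description, with an antibody against NFIC. There were 3 such ChIP libraries, and 1 library of input DNA that was made without antibody. Whole pancreas holds acinar, ductal, islet and stromal cells, so a peak is not tied to a cell type. The list merges the ChIP libraries and has no values by library, which leaves the depth and the variation among replicates unknown.

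FOXA proteins are pioneer factors that open chromatin for other regulators in the foregut endoderm. HNF4A and HNF4G are nuclear receptors that bind a direct repeat and act in liver, gut and islets, and ONECUT1, also called HNF6, and SOX9 act in the progenitors of the pancreas and remain in its duct cells. NFIC belongs to the nuclear factor I family, which binds a palindrome as a dimer.

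NFIC peaks were assigned to *Hnf4a*, *Foxa1*, *Foxa2*, *Foxa3*, *Onecut1* and *Sox9*, and none to *Hnf4g* or *Onecut2*. Only *Foxa2* had more than 1 peak, with 3. *Hnf4a* was the only gene of the 8 with a peak in its promoter, and its peak lay at the upstream promoter that is known to be used in the pancreas. The stretches of DNA under 5 of the peaks are shown because they hold the motifs on which the results turn. They are from the plus strand of GRCm38 (the assembly of build mm10, RefSeq copy), 5′ to 3′, in lower case, with the matched motifs in capitals. In the *Hnf4a* promoter these are an HNF1-like match with 2 mismatches followed by an ONECUT word. That HNF1-like run exceeds the planned tolerance of 1 mismatch and was seen before the tolerance was widened. A CAGCTG word (E-box) of the same peak lies past the end of the printed stretch. The proximal *Foxa2* peak holds an HNF4-like repeat with 2 mismatches followed by a FOX word. The distal *Foxa2* peak holds an HNF1 match with 1 mismatch. The *Onecut1* and *Foxa3* introns hold a full NFI site with 1 mismatch each.
Hnf4a promoter, chr2:163506665-163506810: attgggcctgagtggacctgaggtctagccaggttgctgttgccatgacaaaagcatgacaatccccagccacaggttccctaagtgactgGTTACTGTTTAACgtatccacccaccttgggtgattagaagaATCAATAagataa
Foxa2 proximal, chr2:148030343-148030515: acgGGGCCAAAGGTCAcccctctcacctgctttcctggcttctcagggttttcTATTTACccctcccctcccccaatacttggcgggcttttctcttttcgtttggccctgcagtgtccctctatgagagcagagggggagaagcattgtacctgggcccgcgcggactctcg
Foxa2 distal, chr2:147968770-147968942: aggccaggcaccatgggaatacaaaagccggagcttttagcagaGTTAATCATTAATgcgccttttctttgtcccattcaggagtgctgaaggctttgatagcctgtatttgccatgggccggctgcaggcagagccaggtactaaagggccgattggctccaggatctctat
Onecut1 intron, chr9:74876211-74876383: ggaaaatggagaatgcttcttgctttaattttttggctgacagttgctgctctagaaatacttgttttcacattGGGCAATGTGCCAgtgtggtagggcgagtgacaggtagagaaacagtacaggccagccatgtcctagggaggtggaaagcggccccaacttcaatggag
Foxa3 intron, chr7:19022233-19022405: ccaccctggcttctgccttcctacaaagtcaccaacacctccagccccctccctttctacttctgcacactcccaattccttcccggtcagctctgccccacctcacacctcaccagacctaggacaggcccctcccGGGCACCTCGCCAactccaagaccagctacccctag

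At least 1 peak was assigned to 75% of the 8 genes (95% Wilson interval 40.9 to 92.9%), compared with 37.2% of the 21000 protein-coding genes of the RefSeq annotation. The interval covers the counting of genes only, and with genes chosen in the light of earlier results it is no test against that share. A promoter peak, from 1000 bp upstream of the TSS to the TSS, was found at 1 of the 8 genes and at 10.7% of all protein-coding genes. Among genes with a peak, 61.2% had a single peak and 17.2% had 3 or more. Of the 6 bound genes examined here, 5 were of the first kind and *Foxa2* was of the second.

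The peak score is the authors' own, on a scale that neither the list nor the methods name, and it was used only to rank peaks within the list. Scores of the 8 peaks were 3.78 at *Foxa1*, 4.58 at *Hnf4a*, 4.58 at *Sox9*, 4.98 at *Foxa3*, 5.18 at *Onecut1*, and 5.38, 8.17 and 11.0 at *Foxa2*. Their median was 5.08 (SD 2.41, n = 8 peaks), against a median of 6.57 and quartiles of 4.98 and 9.16 over all 15824 peaks. Only 2 of the 8 peaks, both of *Foxa2*, reached the overall median, which 51.6% of all peaks reached. The other 6 peaks therefore lay in the lower part of the list. No test was made of this difference, since the list holds no replicate values and the genes were chosen with earlier results of these data known.

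**Figure D1:**
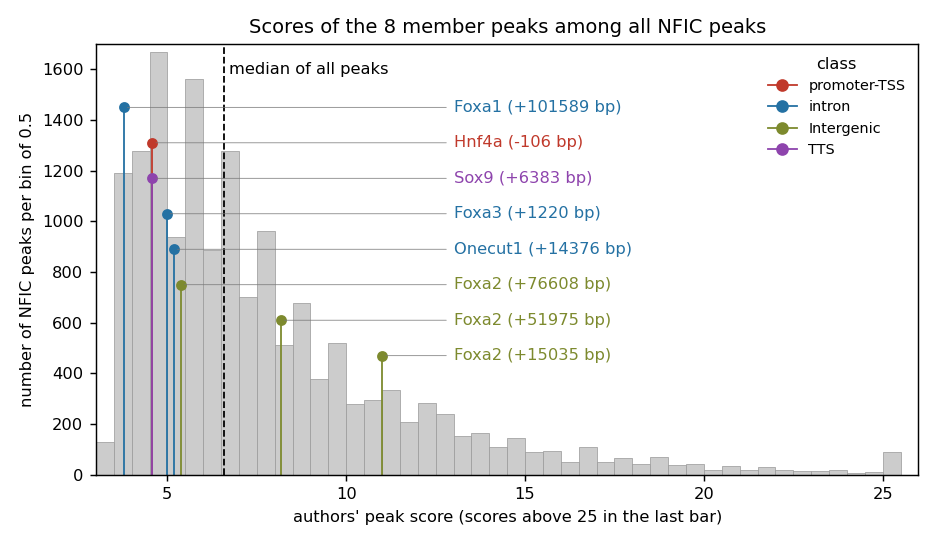
Distribution of the authors' peak score over all 15824 NFIC peaks (grey bars, number of peaks per bin, with the few scores above the axis gathered in the last bar), with the 8 peaks of the HNF4, FOXA, ONECUT and SOX9 genes as labelled lines coloured by class of genomic element; the height of a line has no meaning. The median of all peaks, 6.57, is dashed, and only the *Foxa2* peaks at 8.17 and 11.0 lie to its right.

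The positions of the peaks within or beside the genes also varied. By the authors' classes, 3 peaks were intronic, 3 intergenic, 1 in a promoter and 1 at a transcript end, whereas 40.8% of all peaks were intronic, 30.6% intergenic, 20.7% in the promoter class and 1.83% at a transcript end. The *Hnf4a* peak was the only one upstream of its TSS. The other 7 peaks lay downstream, as 55.4% of all peaks did. The median distance to the TSS without sign was 14706 bp, against 10439 bp over all peaks, and 6 of the 8 peaks were more than 5000 bp away, as were 61.1% of all peaks.

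*Hnf4a* encodes the HNF4 receptor of liver, gut and islets, and has an upstream and a downstream promoter, named P2 and P1, of which P2 is the one known for its use in the pancreas. The *Hnf4a* peak (chr2:163506665-163506837, mm10) was centred 106 bp upstream of the upstream TSS of the curated RefSeq transcripts. It was 40404 bp upstream of their downstream TSS. A further RefSeq transcript starts 60 bp downstream of the peak centre, and its start is the gene start used below. The end of the peak interval overlaps the start of the gene in the RefSeq copy, but no peak of the list was centred in the gene body, which spans 66.1 kb, so none was centred at the downstream promoter. The score of 4.58 exceeded that of 16.4% of all peaks. Its focus ratio, the fraction of the tags of a peak that lie on the proper sides of the peak centre, was 0.635, against a median of 0.684 over all peaks. The antisense long non-coding RNA gene *Hnf4aos* also spans this position, and the reads of a ChIP library cannot be tied to either strand. The printed stretch stops at the base before the start of the *Hnf4a* gene in the RefSeq copy.

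Around *Hnf4a* the list holds stronger peaks that are assigned to other genes. Within 100 kb of the gene body there were 6 peaks, and that at the promoter was number 5 among them by score. The highest, 14.1, lay 69.9 kb past the gene end and was assigned to *0610039K10Rik*. The next, 11.6, was in the promoter of *Fitm2*, a gene of lipid droplet formation, 34.1 kb upstream. Another peak, with a score of 5.78, lay 12.6 kb upstream in an intron of the antisense gene and was assigned to *R3hdml*. The remaining peaks had scores of 6.57 and 3.98.

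*Hnf4g*, the paralogue of *Hnf4a* that is known from the gut, had no peak in its gene body of 152 kb and none within 1000 kb of it. The nearest peak was 1916 kb away, had a score of 4.98 and was assigned to *Pex2*. The next protein-coding gene, *Zfhx4*, starts 1558 kb away and had no peak either. *Hnf4g* is the gene nearest to the start of chromosome 3, and much of the sequence upstream of it consists of unknown bases in this build, where no peak could be called. Of the 4153 kb nearer to *Hnf4g* than to any other TSS, 1153 kb is known sequence. Over all chromosomes except Y, the list holds 0.618 peaks per 100 kb.

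The FOXA genes carried 5 of the 8 peaks, and the 3 genes differed in the position of these. *Foxa2*, the FOXA gene needed for foregut endoderm and for islet function, had 3 intergenic peaks downstream of the TSS. The proximal peak (chr2:148030343-148030515) lay 15035 bp from the nearest TSS and had a score of 11.0, higher than 83.8% of all peaks. The middle peak (chr2:147993403-147993575) lay 51975 bp away with a score of 8.17, higher than 67.0%. The distal peak (chr2:147968770-147968942) lay 76608 bp away with a score of 5.38, higher than 29.9%. The more distant of these 3 peaks had the lower scores, and the focus ratios were 0.632, 0.685 and 0.569 in the same order. All 3 lie inside the long non-coding RNA gene *9030622O22Rik* of the RefSeq copy, although the authors' annotation calls them intergenic. The *Foxa2* gene itself, of 4.09 kb, held no peak, and neither did the 500 kb upstream of it, against 4 peaks in the 500 kb downstream. The fourth of these, with a score of 8.17, was 231 kb past the gene end and assigned to *A530006G24Rik*. The neighbouring protein-coding genes *Pax1* and *Sstr4* had no peak.

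*Foxa1*, which acts together with *Foxa2* in the endoderm, had a single peak (chr12:57444436-57444608) at 101589 bp downstream of its TSS, within the last intron, 9 of 9, of the neighbouring gene *Mipol1*. With 3.78, it had the lowest score of the 8 peaks, and only 2.47% of all peaks scored lower. Its focus ratio of 0.788 was the highest of the 8 and exceeded that of 94.7% of all peaks. Of its 173 bases, 23.1% are soft-masked as repeats in the RefSeq copy. The exon of a long non-coding RNA gene, *Gm16246*, overlaps it. *Mipol1* was assigned no peak, and no other peak lay within 100 kb of *Foxa1*.

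*Foxa3*, the FOXA gene best known from liver and gut, had a single peak (chr7:19022233-19022405) in its only intron, 1220 bp downstream of the TSS, with a score of 4.98 and a focus ratio of 0.628. It was the member peak nearest to a TSS after that of *Hnf4a*. The gene lies in a dense region, where *Sympk* is 0.838 kb upstream and *Irf2bp1* 6.52 kb downstream, and neither has a peak. Within 100 kb there were 5 peaks, of which the other 4, assigned to *Fbxo46*, *Six5*, *Mypop* and *Nanos2*, scored from 5.58 to 6.77 and so above that of *Foxa3*.

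*Onecut1*, a cut-homeobox factor of pancreatic progenitors and ducts, had a single peak (chr9:74876211-74876383) in its only intron, 14376 bp downstream of the TSS. Its score of 5.18 was higher than that of 27.0% of all peaks, and its focus ratio of 0.733 higher than that of 77.0%. The peak overlaps an exon of the long non-coding RNA gene *Gm38678*. A further 3 peaks within 100 kb of the gene lay downstream, with scores of 7.37, 6.17 and 3.98 at 23.2, 49.6 and 63.4 kb past the gene end, and were assigned to *Fam214a*. Upstream, a group of 3 peaks with scores from 4.78 to 6.37, assigned to the non-coding gene *Gm16551*, was nearest to *Onecut1* when only protein-coding genes could be named, which gave *Onecut1* 4 peaks. *Onecut2*, its paralogue on chromosome 18, had no peak, and neither did the 106 kb that is nearer to its TSS than to any other. The nearest peaks were 68.4 and 90.6 kb past the gene end with scores of 6.77 and 17.3, and both were assigned to *Fech*, the ferrochelatase gene of heme synthesis, with the latter 29 bp downstream of its TSS. The 500 kb upstream of *Onecut2* held no peak and the 500 kb downstream held 10.

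*Sox9*, a factor of pancreatic progenitors that is kept in duct and centroacinar cells, had a single peak (chr11:112788507-112788679) of the transcript-end class, 6383 bp downstream of the TSS and 836 bp past the gene end. Its score was 4.58 and its focus ratio 0.617. The gene lies in a stretch with few protein-coding genes, with *Slc39a11* 457 kb downstream. No peak lay in the 500 kb upstream, against 10 in the 500 kb downstream. Of the other 9 peaks, 7 were assigned to the long non-coding RNA gene *2610035D17Rik*, with scores from 4.78 to 8.17 at 250 to 360 kb past the end of *Sox9*. When only protein-coding genes could be named, 10 peaks were nearest to *Sox9*, 9 of them downstream and 1 far upstream with a score of 8.56. The assignment to *Sox9* therefore depends on which transcripts count as genes.

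**Figure D2:**
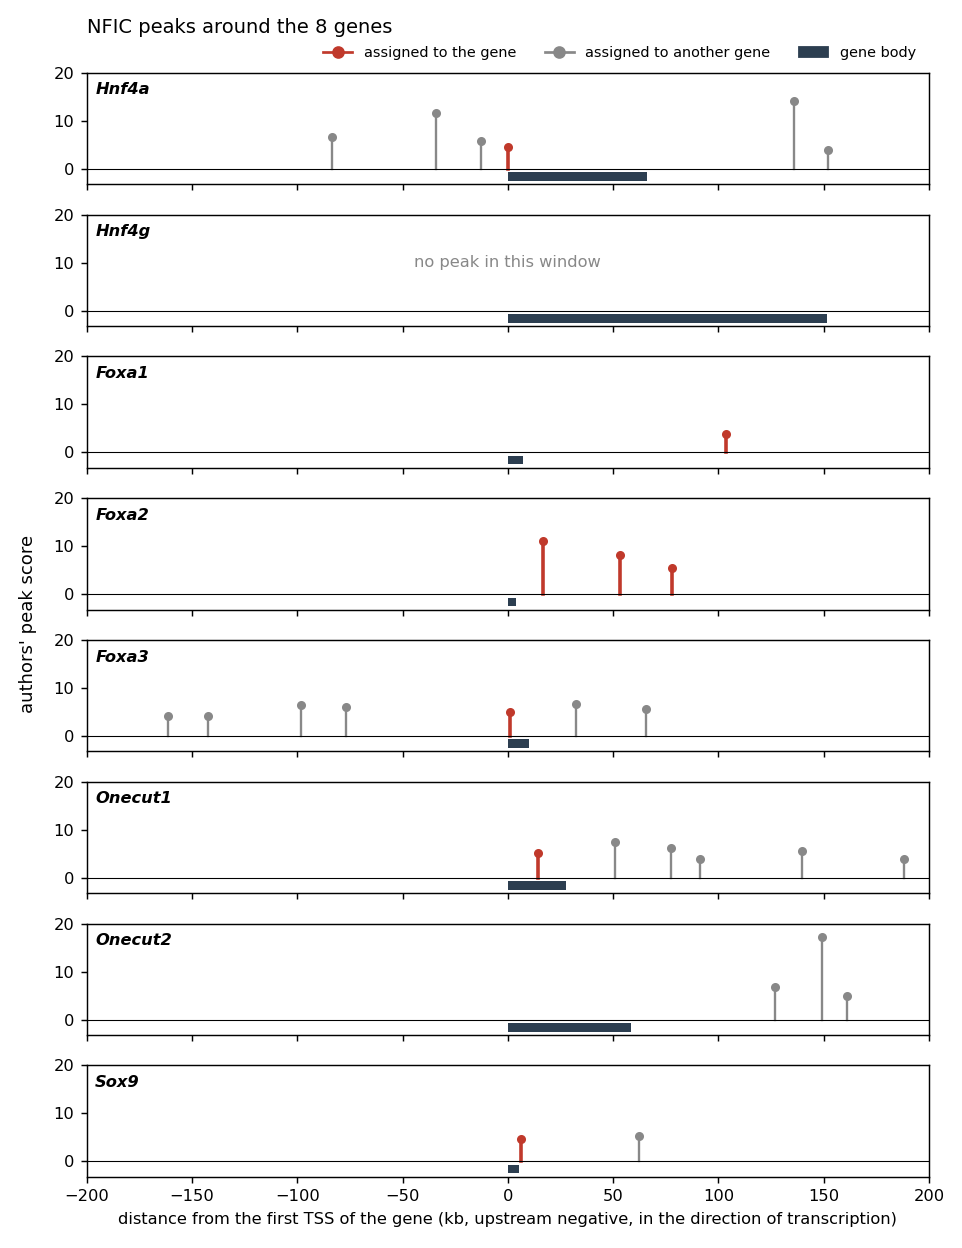
NFIC peaks around each of the 8 genes: the horizontal axis is the distance in kb from the most upstream TSS of the gene in the direction of transcription, the height of a line is the authors' peak score, red marks peaks assigned to the gene, grey marks peaks assigned to another gene, and the dark bar is the gene body. *Hnf4g* has no peak in the window, and the 3 *Foxa2* peaks stand downstream with scores of 11.0, 8.17 and 5.38. The tallest grey peaks shown are those of *Onecut2* (17.3) and *Hnf4a* (14.1), each within 100 kb of the gene end rather than of the TSS. A taller peak of 21.1, assigned to *Myo5c*, lies 347 kb past the end of *Onecut1* and so outside the window shown.

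Each gene was given the stretch from midway to the next TSS of another gene on the upstream side to midway on the downstream side, which at *Hnf4a* runs across both promoters and holds 1 TSS of another gene. Over these stretches the 8 genes held 0.410 peaks per 100 kb of known sequence, and 1.003 without *Hnf4g*, which has most of that sequence. The value was 9.84 at *Foxa3*, whose stretch is only 10.2 kb, 2.28 at *Sox9*, 1.91 at *Onecut1*, 1.33 at *Hnf4a*, 0.874 at *Foxa2* and 0.599 at *Foxa1*. For all except *Foxa2* these rest on 1 peak and are set by the length of the stretch.

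Motifs were searched on both strands in windows of 200 bp around the peak centres, as fixed words, and the same search over all 15824 peaks gives the share beside each count. A match is a description of the letters only. The full NFI site, TGGCNNNNNGCCA with at most 1 mismatch over the 8 fixed bases, was found in 2 of the 8 peaks, those of *Onecut1* and *Foxa3*, and in 51.8% of all peaks. Among all peaks in promoter windows the share was 37.7%, and the *Hnf4a* promoter peak held none. The longer single arm TTGGCA, which shares TGGC with the full site, was in 0 of the 8 and in 33.6% of all. In the *Onecut1* intron the site GGGCAATGTGCCA was 6 bp from the peak centre, and in the *Foxa3* intron GGGCACCTCGCCA was 57 bp from it, each with 1 mismatch. Without a mismatch, the full site was in none of the 8 peaks and in 13.4% of all peaks. With the longer arm on both sides and at most 2 mismatches, the direction turned, with a match in 2 of the 8 peaks and in 12.3% of all peaks. These 2 were the *Onecut1* peak and the middle *Foxa2* peak, whereas the *Foxa3* peak had no match at this setting. None of the 3 *Foxa2* peaks held a full site at the setting of at most 1 mismatch, although they include the highest scores of the 8.

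Motifs of the genes' own protein families and of HNF1 were found in 3 of the 8 peaks, against 14.2% of all peaks. Each of the 3 belonged to *Hnf4a* or *Foxa2*. The *Hnf4a* promoter held the ONECUT word ATCAATA (searched with ATCGATA) 50 bp downstream of the peak centre, present in 1.88% of all peaks. The proximal *Foxa2* peak held TATTTAC, a FOX word searched together with TGTTTAC and present in 6.38% of all peaks, 30 bp from the centre. The same peak held GGGCCAAAGGTCA, a match with 2 mismatches to the HNF4 repeat AGGTCAAAGGTCA that 1.12% of all peaks held at this tolerance, 77 bp from the centre. The distal *Foxa2* peak held GTTAATCATTAAT, which differs by 1 mismatch from the HNF1 palindrome GTTAATNATTAAC. At up to 1 mismatch this palindrome was in 44 peaks of the list, or 0.278%, this peak included.

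At the *Hnf4a* promoter an HNF1-like run, GTTACTGTTTAAC, lies 11 bp from the peak centre, with 2 mismatches. It was seen in the sequence before the tolerance was widened, and at 2 mismatches the palindrome was in 2 of the 8 peaks and 1.32% of all. SOX words, ACAAAGG or ACAATGG, were in none of the 8 and in 5.59% of all peaks, and the *Sox9* peak matched none of the 10 motifs.

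Of the motifs of acinar regulators, the GATA word GATAAG (7.75% of all peaks) and the NR5A2 words TCAAGGTCA and TCAAGGCCA (1.12%) were in none of the 8 peaks. The E-box words CAGCTG and CAGATG, of the kind bound by bHLH factors such as PTF1A, were in 2 of the 8, the *Hnf4a* promoter and the middle *Foxa2* peak, and in 32.5% of all. The *Foxa1* peak, like that of *Sox9*, matched no motif. None of these shares was tested. GC content of the 8 peaks ranged from 43.4% at *Foxa1* to 63.0% at *Sox9*, with a median of 51.7% against 54.3% over all peaks.

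**Figure D3:**
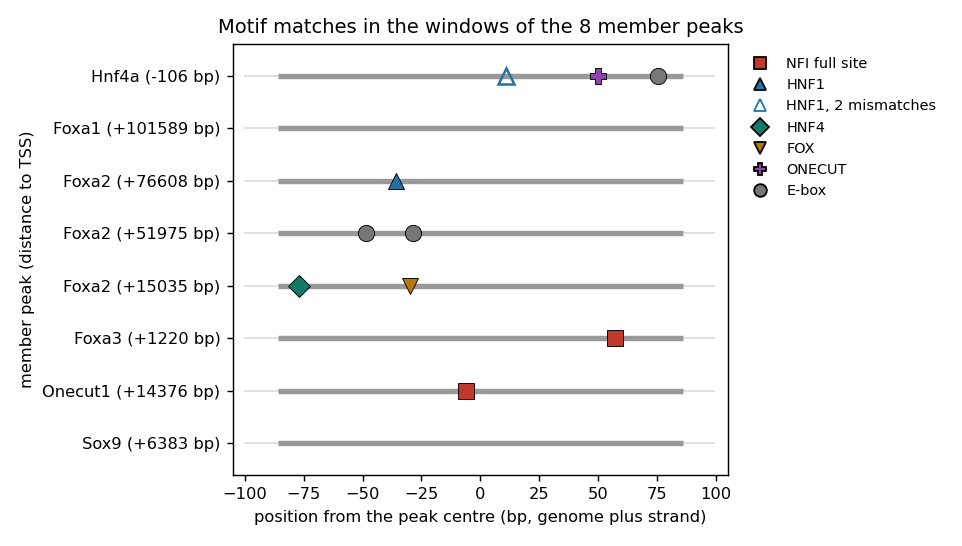
Motif matches in the 8 peaks, with the distance of each match from the peak centre in bp on the horizontal axis; thick grey bars are the deposited peak intervals of 173 bases, thin lines the searched windows of 200 bp, and the open triangle is the HNF1 match with 2 mismatches. The full NFI site appears only at *Onecut1* (-6 bp) and *Foxa3* (57 bp), in each case with 1 mismatch, the ONECUT, FOX, HNF4 and HNF1 matches only at *Hnf4a* and *Foxa2*, and the *Foxa1* and *Sox9* peaks are empty.

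Of the close relatives *Onecut3*, a paralogue of *Onecut1* and *Onecut2*, and *Sox8* and *Sox10*, which form the SOXE group with *Sox9*, 0 of 3 were assigned a peak (95% Wilson interval 0 to 56.1%). With 3 genes this interval is too wide to be set against the 37.2% of all protein-coding genes, and no test was made.

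In the wider families, peaks were assigned to 20 of 44 FOX genes (45.5%), 11 of 19 SOX genes (57.9%), 4 of 7 CUT homeobox genes (57.1%) and 9 of 12 genes of the NR2 group of nuclear receptors (75%), each count including the members examined here. Beside the 37.2% of all protein-coding genes, the lists of 7 to 44 genes are described only, and no list was tested. Promoter peaks were found at 5 of the 44 FOX genes, beside 10.7% of all protein-coding genes. These were *Foxk2*, *Foxn2*, *Foxp2*, *Foxp4* and *Foxq1*, of which *Foxp2* had a score of 14.3. By the same window, from 1000 bp upstream to the TSS, the SOX genes with a promoter peak were *Sox4* (7.17), *Sox7* (13.5), *Sox11* (5.58) and *Sox12* (9.56), whereas the *Sox9* peak was past its gene end. Peaks just downstream of the TSS, such as those of *Foxj3* at 61 bp and *Sox13* at 91 bp, both with a score of 5.58, are of the authors' promoter class but outside this window. *Rxra*, the retinoid X receptor and a relative of HNF4A within the NR2 group, had 9 peaks with scores up to 23.3, and *Rxrg* had a single peak of 4.38. Promoter peaks were found at 4 of the 12 NR2 genes, *Nr2c2* (18.9), *Rxra* (7.17), *Nr2c1* (6.17) and *Hnf4a* (4.58). Median scores over the peaks of these lists were 6.37 (FOX, 58 peaks), 5.58 (SOX, 28 peaks), 5.78 (CUT, 10 peaks) and 7.07 (NR2, 26 peaks).

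Genes known from pancreatic ducts and progenitors, which many of the 8 factors accompany, were bound at 10 of 16 (62.5%, 95% Wilson interval 38.6 to 81.5%), beside 37.2% of all protein-coding genes. Their 30 peaks had a median score of 7.47, beside 6.57 over all peaks. *Hes1*, the Notch target that marks progenitors, had 5 peaks with scores from 7.77 to 22.1. *Tead1*, an effector of Hippo signalling, had 6 peaks, including a promoter peak of 5.58. *Gata4* and *Gata6* had 5 and 4 peaks, all intergenic and upstream of the TSS, with scores up to 13.7 and 17.5. The duct keratin gene *Krt19* had 3 peaks, from 6.17 to 8.56, and *Krt7* a promoter peak 66 bp upstream of its TSS with a score of 4.58, the same as that of the *Hnf4a* promoter. *Ptf1a* and *Glis3* had 2 peaks each, and *Nkx6-1* and *Bicc1* 1 each. No peak was assigned to *Pdx1*, *Neurog3*, *Prox1*, *Cftr*, *Spp1* or *Pkhd1*.

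**Figure D4:**
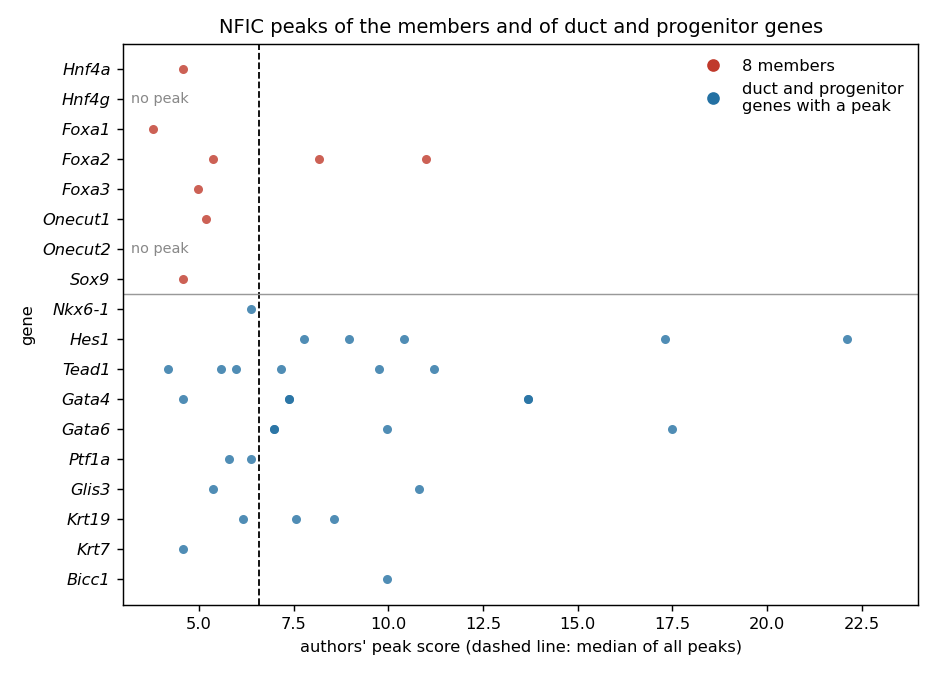
Authors' peak score of every NFIC peak assigned to the 8 HNF4, FOXA, ONECUT and SOX9 genes (red) and to the 10 duct and progenitor genes with a peak (blue), 1 point per peak, with the median of all peaks (6.57) dashed; darker points are peaks of equal score. The red points lie below 6.57 except 2 of *Foxa2*, and the blue points reach 22.1 at *Hes1*.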

How the data were processed

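NFIC ChIP-Seq of mouse pancreas is represented by a merged peak list, in which 0 columns hold values of a single library, so no replicate error could be given. The submitters' processing notes name BWA, Picard and MACS2 with build mm10, and the form of the list is that of HOMER annotation. For peak calling the paper's methods name both the RUbioSeq+ pipeline and HOMER, and they name HOMER for merging replicate peaks. Which program gave the score is therefore not settled. Versions and thresholds are not given in the sources used here. The peak score was used as deposited, for ranks only. The focus ratio is a fraction as deposited by the authors. Distances and classes are those of the authors. Positions, sequences, gene bodies and TSSs are from RefSeq GRCm38.p6. The authors' distance equalled that to the same transcript in this copy for 92.7% of 15725 peaks and for all 8 peaks examined. Gene symbols of 269 peaks were updated by Entrez ID for counts over genes. Protein-coding genes are those with a curated transcript.

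Members, gene lists and motifs were chosen with earlier results of these data known, so counts are descriptions beside the share over all genes or peaks, with Wilson intervals and without tests. Named genes are the 8 members, genes around their peaks, and listed relatives and duct genes. Some listed genes are not reported here, and list counts leave them out. In the wider families, the genes with a promoter peak, *Rxra* and *Rxrg*, and elsewhere the genes of other nearby peaks, were named after their values were seen. The motif search was tested on simulated data and found 2000 of 2000 planted sites. Alternatives varied score, merging, assignment, promoter window and motif settings. Python 3.11.15, numpy 2.4.6, pandas 2.3.3 and pysam 0.24.0 were used.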

Additional observations from a re-analysis of the deposited data

How the results depend on the processing

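Scores of the whole list are merged values, so leaving out a library was not possible, and no paired analysis was possible because no value per library is given. Keeping the peaks at or above the median score left 1 gene (*Foxa2*) and 2 peaks, with 0 peaks at *Hnf4a*, *Foxa1*, *Foxa3*, *Onecut1* and *Sox9*, 0 promoter peaks and full NFI sites in 0 of these 2 peaks (59.4% of all peaks kept). With the nearest protein-coding TSS there were 21 peaks, of which *Onecut1* had 4 and *Sox9* 10. Counting every peak within 100 kb of a TSS gave 19 peaks, with 5 at *Hnf4a*, 0 at *Foxa1*, 5 at *Foxa3*, 4 at *Onecut1* and 2 at *Sox9*. Full NFI sites were in 0 of the 8 peaks without a mismatch (13.4% of all peaks) and in 1 in a 100-bp window (39.4%). With the longer arm TTGGCA and at most 2 mismatches they were in 2 of the 8, against 12.3% of all peaks. These 2 were the *Onecut1* peak and the middle *Foxa2* peak. That setting changed the arm and the tolerance together. In the 100-bp window the HNF4 match at *Foxa2* and the ONECUT match at *Hnf4a* were lost (0 of 8 each, against 0.499% and 0.98% of all peaks). Merging peaks within 500 bp changed none of the counts of genes and peaks. The absence of peaks at *Hnf4g* and *Onecut2* held under every assignment tried. The 100 kb was counted from the TSS here, whereas within 100 kb of its gene body *Onecut2* had 2 peaks, both assigned to *Fech*. For the promoter, 1 peak was counted with each other window and with any RefSeq TSS. The median score was 4.58 without *Foxa2* and 5.98 with all peaks within 100 kb, against 5.08. A peak shows that NFIC was found near a gene, not that the gene responds to it, and the unknown depth limits what the absence of a peak can mean.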

Other observations

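Genes known to be driven by HNF4 or FOXA factors in liver, gut or islet were bound at 5 of 15 (33.3%, 6 peaks with a median score of 8.17), beside 37.2% of all protein-coding genes. *Apoa1*, an apolipoprotein gene of high-density lipoprotein, had a peak of 13.7 at 1359 bp downstream of its TSS and another of 8.76 at -70168 bp, upstream. *Apob* (9.96), *Alb* (7.57), *Apoa2* (6.97, 1000 bp upstream of the TSS) and *Kcnj11* (4.58) had 1 peak each. No peak was assigned to *Apoc3*, *Serpina1a*, *G6pc*, *Pck1*, *Tat*, *Slc2a2*, *Abcc8*, *Gcg*, *Ins1* or *Ins2*.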
